A study of Drosophila melanogaster with 4 samples.

Results

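Gug-eGFP peaks marked 327 reproducible regions between genes of the fly embryo, away from every protein-coding promoter, out of 2643 reproducible regions in all. These distal intergenic regions were chosen by position alone. Peak summits of 4 replicate lists within 200 bp of each other were joined, joins held by at least 2 lists on the main chromosome arms were kept, and the median summit was taken as the position. A member lies more than 1000 bp from every transcription start site (TSS) of a protein-coding gene and outside the span of every such gene, by the Ensembl release 115 annotation of the dm6 build. The other reproducible regions serve for comparison, 1634 within 1 kb of a TSS (called promoter regions here) and 682 distal regions inside a protein-coding gene.

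The data are chromatin immunoprecipitation with sequencing of whole Drosophila melanogaster embryos aged 0 to 24 h, in 4 biological replicates of 1 group. All animals came from the strain Gug-GFP, which carries an insertion targeting Gug and makes a Gug-eGFP fusion protein, and the labels describe a precipitation with anti-GFP antibody, although their antibody field reads Gug. The 4 lists on the main arms hold 1948, 3786, 2117 and 2450 peaks for replicates 1 to 4. No control sample was analysed here, whole embryos mix every tissue and stage of that window, and peak lists hold no counts of reads, which leaves library depth unknown.

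Gug, also called Grunge, is the fly Atrophin, a nuclear co-repressor that is brought to DNA by other proteins, among them nuclear receptors such as Tailless. Sequence between genes holds enhancers and silencers, which act on promoters over a distance, insulators, which limit such action, and genes of noncoding RNAs. A region between genes may act on either neighbour or on a gene farther away. Leading regions are therefore named by both flanking protein-coding genes, and a shorter name by a single gene assigns no target.

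Short related sequences recurred beside the summits, mostly in 1 orientation, and 8 windows of 201 bp centred on members are shown because they hold them. A count of all 7-letter and 8-letter words within 100 bp of member summits, against windows centred 1000 bp to either side, put CAGTGTA at the top by difference in share, with the word CAGTGCA next to it and TCTCAGTG leading among the longer ones. These words share the letters CAGTG and were chosen after their counts were seen, as was AGATGGCGC, which holds letters of the core of the recognition sequence of the insulator protein CTCF. Each line gives the plus strand of the dm6 reference (RefSeq), 5′ to 3′, with the 4 words or their reverse complements in capitals. The first 7 are the 2 strongest members for each word, with 1 chromosome arm and windows over 50% soft-masked left out and 1 member standing for a pair of words, and the last is the strongest member, which holds none of the 4.
CG3149 to AdamTS-B, chrX:5696417-5696617: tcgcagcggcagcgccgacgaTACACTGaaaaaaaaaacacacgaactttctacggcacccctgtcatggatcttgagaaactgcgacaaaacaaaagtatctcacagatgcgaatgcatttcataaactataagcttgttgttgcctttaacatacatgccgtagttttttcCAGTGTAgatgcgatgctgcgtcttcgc
slp1 to slp2, chr2L:3832419-3832619: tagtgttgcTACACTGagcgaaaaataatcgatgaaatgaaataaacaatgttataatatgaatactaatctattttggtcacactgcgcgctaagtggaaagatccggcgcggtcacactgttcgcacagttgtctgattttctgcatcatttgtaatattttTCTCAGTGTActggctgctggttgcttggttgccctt
CG43401 to CG43402, chr2L:1433790-1433990: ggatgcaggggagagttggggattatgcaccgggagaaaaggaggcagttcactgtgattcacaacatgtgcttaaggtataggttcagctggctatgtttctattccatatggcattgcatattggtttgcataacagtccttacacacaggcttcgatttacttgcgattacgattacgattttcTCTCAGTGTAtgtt
CG4004 to Paics, chrX:12752286-12752486: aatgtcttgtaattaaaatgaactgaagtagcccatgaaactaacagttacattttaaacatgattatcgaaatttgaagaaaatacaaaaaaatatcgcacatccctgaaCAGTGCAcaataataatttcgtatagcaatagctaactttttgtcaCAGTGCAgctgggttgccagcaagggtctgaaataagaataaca
RFeSP to chinmo, chr2L:1649612-1649812: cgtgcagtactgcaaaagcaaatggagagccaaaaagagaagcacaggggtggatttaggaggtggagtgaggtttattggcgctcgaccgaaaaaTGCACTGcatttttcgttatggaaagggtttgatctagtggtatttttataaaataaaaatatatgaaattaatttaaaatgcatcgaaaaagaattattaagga
soti to cv-c, chr3R:14391323-14391523: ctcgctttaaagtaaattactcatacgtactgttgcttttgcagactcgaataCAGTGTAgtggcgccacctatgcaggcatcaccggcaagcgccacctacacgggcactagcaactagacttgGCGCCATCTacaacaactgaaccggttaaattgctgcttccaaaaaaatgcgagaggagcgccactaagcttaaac
Sox21a to Sox21b, chr3L:14111530-14111730: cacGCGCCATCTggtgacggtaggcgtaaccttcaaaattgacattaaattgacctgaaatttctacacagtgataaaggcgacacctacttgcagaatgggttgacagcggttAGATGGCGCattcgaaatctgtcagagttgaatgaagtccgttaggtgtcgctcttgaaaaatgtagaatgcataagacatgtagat
mtSSB to tara, chr3R:16222386-16222586: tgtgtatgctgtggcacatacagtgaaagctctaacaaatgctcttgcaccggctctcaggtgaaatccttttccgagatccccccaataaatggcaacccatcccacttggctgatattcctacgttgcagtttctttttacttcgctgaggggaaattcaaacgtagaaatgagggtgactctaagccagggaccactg

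Read along their own strand, the CAGTG words lay mostly on the downstream side of the summit. The window between CG3149 and AdamTS-B shows the arrangement, with 1 copy near either end, both reading outward. Within 100 bp of member summits 48 of 52 matches of CAGTGTA (92.3%), 53 of 61 of CAGTGCA (86.9%) and 28 of 31 of TCTCAGTG (90.3%) lay downstream, at median distances of 64, 54 and 53 bp. A match of TCTCAGTG followed by TA also counts as a match of CAGTGTA. In 16 members (4.89%) a word lay on each side of the summit and both read outward, with a median spacing of 147.5 bp between them. Such a pair was not particular to members. It lay in 23 of 682 distal regions inside genes (3.37%, median spacing 146 bp) and 8 of 1634 promoter regions (0.490%). Of 654 flank windows of the members 0 had such a pair.

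**Figure D1:**
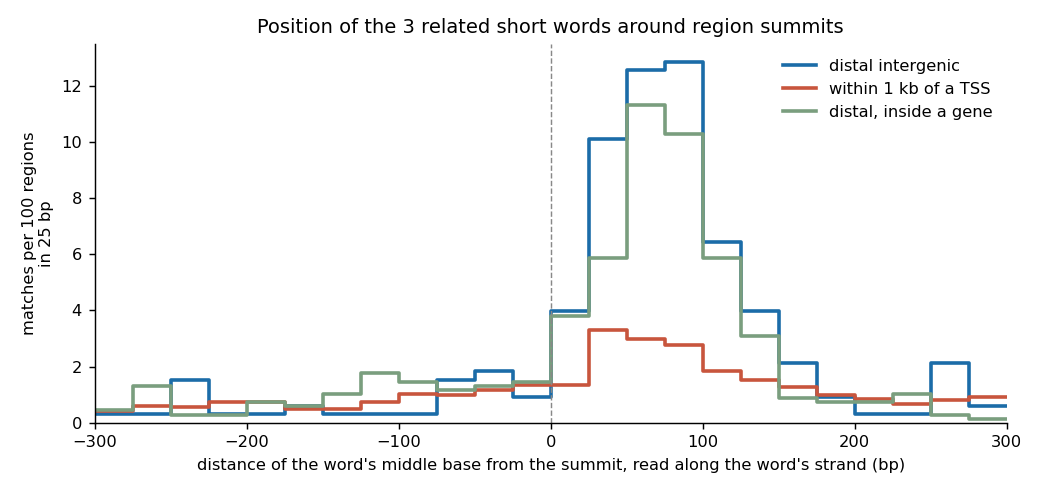
Matches of the 3 CAGTG words per 100 regions in steps of 25 bp, against the distance of the word's middle base from the summit in bp, read along the word's strand, for the 3 classes of region. Members reach 12.5 matches per 100 regions at 50 to 75 bp downstream and 12.8 at 75 to 100 bp, distal regions inside genes follow the same shape, and promoter regions stay lower throughout that stretch.

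The words were more frequent in both distal classes than at promoters. At least 1 of the 3 CAGTG words lay within 100 bp of the summit in 100 of 327 members (30.6%), in 180 of 682 distal regions inside genes (26.4%) and in 200 of 1634 promoter regions (12.2%). The windows 1000 bp to either side held one in 6.27%, 5.50% and 5.08% of cases for these classes in the same order. Over the single lists the share among members was 29.4% ± 2.91 (SD, n = 4 lists that share most of their regions) and among promoter regions 12.6% ± 0.882. All windows of 201 bp cut from eligible sequence, meaning sequence over 1 kb from a TSS and outside coding genes, held one in 5.47% of 195740 cases, and all reproducible regions in 18.2%.

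Taken singly, CAGTGTA lay in 49 members (14.98%) against 1.53% of flank windows, 1.90% of eligible windows and 7.60% of all reproducible regions. CAGTGCA lay in 54 members (16.5%) against 4.28%, 3.24% and 10.1%, and TCTCAGTG in 29 members (8.87%) against 0.612%, 0.663% and 4.35%, in the same order. AGATGGCGC lay in 11 members (3.36%), in 0 of 654 flank windows, in 0.126% of eligible windows and in 1.32% of all regions. Both strands were searched, and because the words were picked for their counts none of these shares was tested. Members with a CAGTG word did not stand higher in signal. Their mean signal percentile was 50.1 ± 4.75 (SD, n = 4 lists) against 53.7 ± 3.56 for the other 227, and higher in 1 of 4 lists. A match describes letters in a window and does not show which protein bound there.

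The strongest member lay upstream of tara. Signal is the score that the authors' peak caller gave each peak, and it is given here as a percentile, the share of the other peaks in the same list with a lower value. The first member lies 3165 bp upstream of tara (taranis, a nuclear protein linked to the trithorax group), between that gene and mtSSB, which encodes a mitochondrial DNA-binding protein. Its percentiles were 99.7, 99.7, 99.3 and 99.8 in replicates 1 to 4 (3R, summit 16222486). All 4 replicates thus placed it in the top 1% of their lists. A pair of further members upstream of tara, at 16221822 and 16224494 on 3R, were in all 4 lists with mean percentiles of 82.1 ± 7.93 and 88.4 ± 5.87 (SD, n = 4).

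Members flanked by Polycomb-group genes, which encode proteins that keep genes repressed, were among the leading 20. A region between Su(z)2 and CG13323 (2R, summit 13035344) had percentiles of 98.5, 99.0, 97.4 and 99.1 in replicates 1 to 4. It lies in an interval of 36783 bp, and its nearest TSS is that of CG13323, 11912 bp away. Psc, the neighbour of Su(z)2 and its paralog, was flanked by 6 members, counting both of its sides. The strongest of them, between Psc and CG33798, lies 4160 bp upstream of the Psc TSS (2R, summit 12985154). It had percentiles of 95.0, 95.2, 84.1 and 93.1, lowest in replicate 3. Of 14 Polycomb-group genes matched, these 2 flanked a member, against 2.95% of all protein-coding genes, a count that was not tested.

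**Figure D2:**
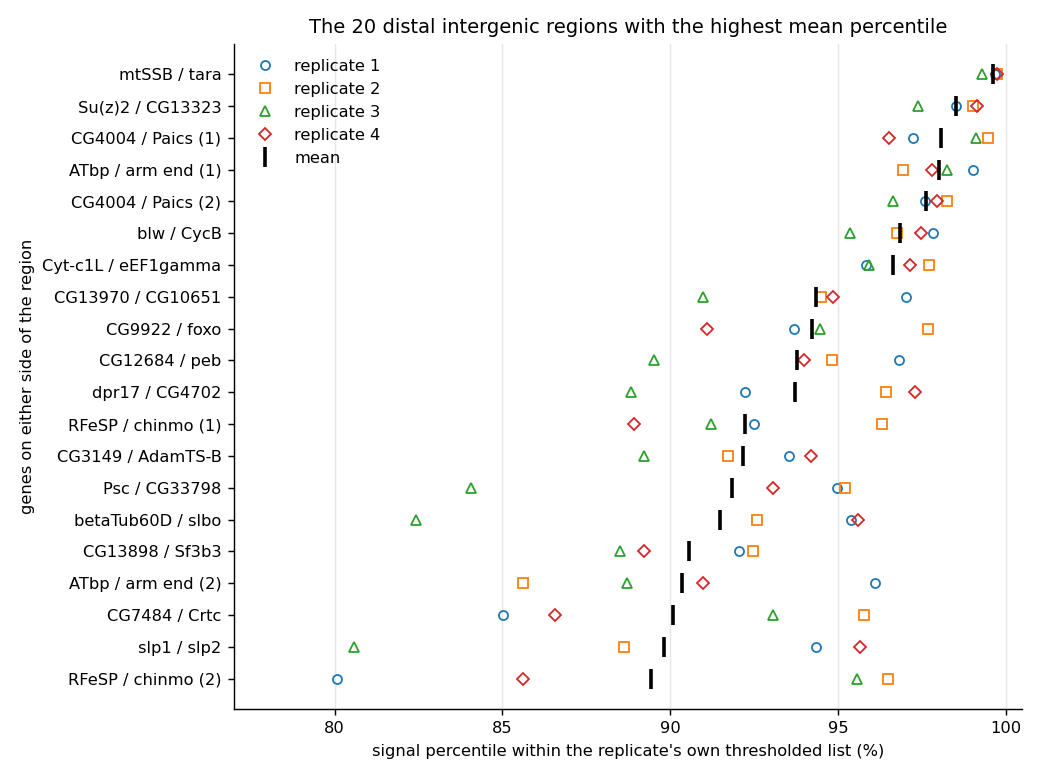
Signal percentile in each replicate's own list (x axis, %) of the 20 members held by all 4 lists with the highest mean percentile, named by the genes on either side (y axis); marks are single replicates and the bar is their mean. The means run from 99.6 at mtSSB and tara down to 89.4 for the second region between RFeSP and chinmo, and the replicates spread wider toward the bottom.

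Several other leading members have a gene of a transcription factor as a neighbour, which is a description only. How common such neighbours are among all members was not counted. A region between betaTub60D and slbo, which encodes the C/EBP factor of border cell migration, had percentiles of 95.4, 92.6, 82.4 and 95.6 in replicates 1 to 4 (2R, summit 24329566). One between CG9922 and foxo, the forkhead factor held in check by insulin signalling, lies 3293 bp upstream of foxo. It had 93.7, 97.7, 94.5 and 91.1 (3R, summit 14053652). One between slp1 and slp2, the sloppy paired forkhead genes of the pair-rule class, had 94.4, 88.6, 80.6 and 95.7 (2L, summit 3832519). The replicates disagreed most at this last one, with replicates 2 and 3 below replicates 1 and 4.

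Further members of the leading 20 lay between CG12684 and peb (a zinc-finger factor also called Hindsight; mean percentile 93.8 ± 3.09), between CG7484 and Crtc (a coactivator of CREB; 90.1 ± 5.14) and between blw and CycB, the gene of the mitotic Cyclin B (96.9 ± 1.09; SD, n = 4 for each). One lay between Cyt-c1L and eEF1gamma, the gene of a translation elongation factor (96.7 ± 0.915). Another lay between CG13898 and Sf3b3, the gene of a splicing factor (90.6 ± 1.98). The region between CG3149 and AdamTS-B, a secreted metalloprotease gene, stood at 92.2 ± 2.22. Others lay between CG13970 and CG10651 (94.3 ± 2.50) and between dpr17 and CG4702 (93.7 ± 3.92). Regions between RFeSP and chinmo, between CG4004 and Paics and beyond ATbp at the end of X complete the 20 and are described below. Those beyond ATbp had means of 98.0 and 90.4. They lie in a ribosomal RNA pseudogene and an R2 element, so their positions are uncertain. Of the 20, 12 shared their gene-free interval with another member, 7 lay within 1 kb of a noncoding RNA gene start and 4 had a promoter region at a flanking gene. Among all members 49.5% shared their interval, 16.8% lay near such a start and 80.4% had no promoter region at either flanking gene. These counts were not tested.

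A smaller share of members than of the other classes was found in every replicate, a difference that has no test over replicates. All 4 lists held 117 of 327 members (35.8%), against 44.3% of all reproducible regions, 47.1% of promoter regions and 41.6% of distal regions inside genes. The series-level conservative set of the authors, made from all 4 replicates, held 72.8% of members, 92.2% of promoter regions and 82.4% of distal regions inside genes. The replicates differed in which members they held, with 257, 248, 191 and 264 in replicates 1 to 4, so members made up 14.5%, 10.2%, 9.66% and 12.8% of the reproducible regions of each list.

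Replicates 1 and 4 shared members that replicates 2 and 3 lacked. Of the 138 members in exactly 2 lists, 62 (44.9%) were in replicates 1 and 4 and 29 (21.0%) in replicates 2 and 3. Promoter regions in exactly 2 lists split the other way, with 28 of 488 (5.74%) in replicates 1 and 4 and 254 (52.0%) in replicates 2 and 3. Distal regions inside genes lay between, with 22.5% and 30.0%. The labels give no batch that pairs the replicates, and whether tissue makeup, stage or library quality differed between them was not tested.

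**Figure D3:**
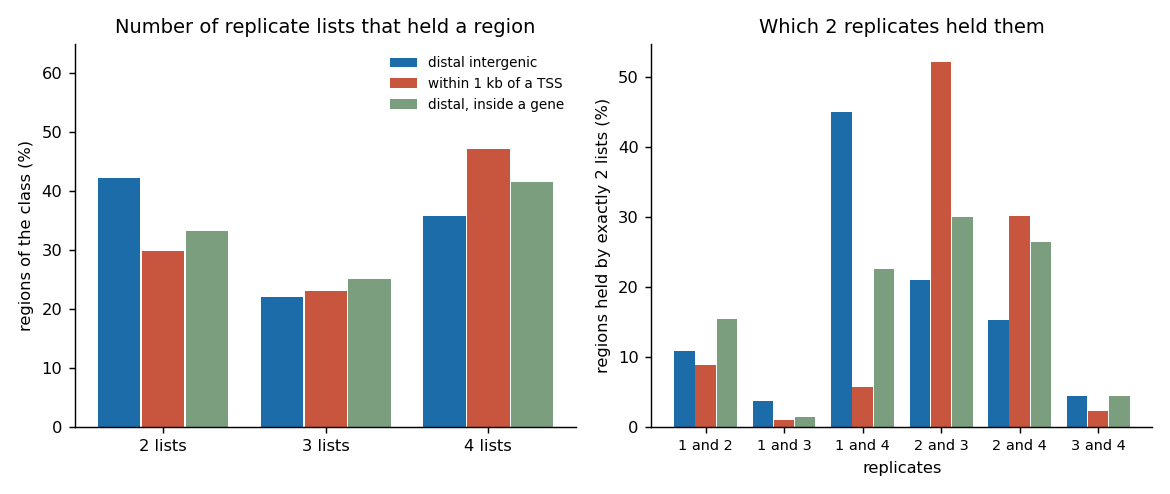
Left, share of each class of region (y axis, %) held by 2, 3 or 4 replicate lists; right, for regions held by exactly 2 lists, the share (y axis, %) held by each pair of replicates (x axis). Members have the tallest bar at 2 lists (42.2%) and the shortest at 4 lists (35.8%), and replicates 1 and 4 hold 44.9% of their 2-list regions against 5.74% for promoter regions.

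Where a list lacked a member, its longer list of ranked candidate peaks usually held it. Such a candidate lay at the position in 88.6% ± 2.97 of cases (SD, n = 4 lists; 308 of 348 in all), against 18.8% ± 0.684 at positions 2 kb to either side. The difference was 69.8 percentage points ± 3.32 and had the same sign in 4 of 4 replicates (exact sign-flip permutation test, 2-sided, p = 0.13, the smallest that 4 replicates allow). Every test over replicates below has that same limit, so no difference could pass 0.05, and such a p measures only the spread between these samples. The share for promoter regions was 86.1% ± 5.63 and for distal regions inside genes 91.0% ± 4.97.

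By signal, members stood below promoter regions in every replicate. Their mean percentile was 52.7 ± 3.68 (SD, n = 4) against 58.1 ± 5.55 for promoter regions, with differences of -2.69, -10.4, -7.19 and -1.34 percentile points in replicates 1 to 4 (mean -5.42 ± 4.18; exact permutation p = 0.13). Replicates 2 and 3 showed the wide gaps and replicates 1 and 4 the narrow ones. Distal regions inside genes stood at 51.5 ± 3.02, and the difference of 1.16 ± 0.825 was positive in 3 of 4 replicates (exact permutation p = 0.25). Among regions in all 4 lists the order against promoters turned in replicate 1, with differences of 5.99, -8.51, -9.23 and -0.50 (mean -3.06 ± 7.22, exact permutation p = 0.375). Over all peaks of a list, the highest signal quartile held a smaller share of distal intergenic peaks than the lowest quartile, with differences of -3.08, -3.17, -4.36 and -5.71 percentage points in replicates 1 to 4 (exact permutation p = 0.13).

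Just inside the distance limit, 31 members lay 1001 to 1500 bp from a TSS with a median mean percentile of 54.2. Just outside it, 65 regions between genes lay 501 to 1000 bp from a TSS, with a median of 43.8.

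Distal intergenic binding thinned out with distance from genes. Eligible sequence makes up 40.5 Mb of 137.5 Mb and held 8.08 members per Mb, against 23.9 other regions per Mb of the remaining sequence. The densities by distance leave out Y and so rest on 37.9 Mb of eligible sequence. The density over the single lists was 13.6 per Mb ± 1.98 (SD, n = 4) at 1 to 2 kb from a TSS, 7.53 ± 1.53 at 10 to 20 kb and 1.50 ± 0.467 beyond 50 kb. Between 2 and 20 kb it changed little, from 8.17 ± 1.12 at 2 to 5 kb to 6.39 ± 1.09 at 5 to 10 kb. The median distance to a TSS was 5372 bp, with quartiles of 2480.5 and 12112 bp. The annotation placed 190 members (58.1%) upstream of the nearest TSS, a share that was not set against that of eligible sequence. The nearest gene boundary was a 5′ end for 160 members (48.9%).

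Gene-free intervals that held a member were long. A member lay in 218 of 4332 intervals with eligible sequence (5.03%), and the median size was 16.6 kb with a member and 2.86 kb without. Long intervals hold more sequence, and per Mb they held fewer members, with 13.8 ± 2.33 in intervals up to 5 kb and 1.72 ± 0.426 in those over 100 kb (mean over the lists ± SD, n = 4, Y left out). The bin of 20 to 50 kb stood out from this order with 8.36 ± 1.55, above the 6.69 ± 0.921 of 10 to 20 kb. Counted per member, the median interval was 21.1 kb. Intervals between genes that point away from each other held 103 members (31.5%) on 22.7% of eligible bases, again without Y, those between genes in the same direction 140 (42.8%) on 49.5%, and those between converging genes 75 (22.9%) on 22.7%.

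**Figure D4:**
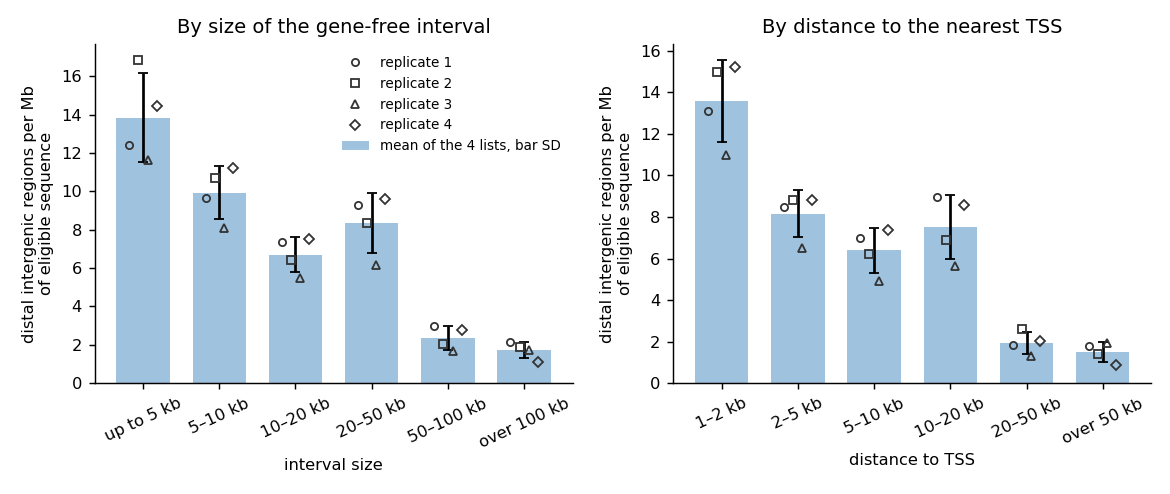
Members per Mb of eligible sequence without Y (y axis) by size of the gene-free interval (left) and by distance to the nearest TSS (right); bars are means of the 4 lists, error bars are SD and marks are single replicates. The density falls from 13.8 to 1.72 per Mb with interval size and from 13.6 to 1.50 per Mb with distance, with a second rise at 20 to 50 kb and at 10 to 20 kb.

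Members clustered in some intervals. In all 162 members (49.5%) shared their interval with another, and 53 intervals held 2 or more. Neighbouring members of 1 interval lay a median of 3210 bp apart, and 41 of 109 such spacings were under 2 kb. Shared intervals were longer, with a median of 25.9 kb against 13.5 kb for members alone. Members that shared an interval had a mean percentile of 56.1 ± 3.28 against 49.4 ± 4.53 for those alone, higher in 4 of 4 replicates (difference 6.70 ± 2.92, exact permutation p = 0.13). The nearest reproducible region of any class lay within 5 kb for 41.3% of members, 41.2% of distal regions inside genes and 35.3% of promoter regions.

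The cluster at chinmo held strong members. Between RFeSP, a subunit of the respiratory chain, and chinmo, which encodes a BTB zinc-finger factor of neuronal timing, 8 members lay in 37.1 kb (2L, 1614161 to 1651257), 4 of them in all 4 lists. The member 1546 bp upstream of chinmo (summit 1649712) had percentiles of 92.5, 96.3, 91.2 and 88.9 in replicates 1 to 4. Of the 5 members nearest to chinmo, 4 had means of 86.7 to 92.2 and the one at 1634264 had 57.4, while the pair nearest to RFeSP stood at 20.6 and 22.9.

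On X, 6 members lay within the 7.25 kb between CG4004 and Paics, an enzyme gene of purine synthesis (12749786 to 12757035). The strongest, at 12751472, had percentiles of 97.2, 99.5, 99.1 and 96.5 in replicates 1 to 4, and the next, at 12752386, had 97.6, 98.3, 96.6 and 98.0. The first lies in lncRNA:Vinr and 395 bp before the start of lncRNA:CR44619, and the second lies 519 bp past that start. Further clusters were 7 members between hng3 and CG13898 (3L, 47.9 kb), whose means ran from 25.1 to 86.9, and 7 between CG44362 and CG7560 (3L, 27.3 kb), from 16.6 to 79.0. The interval between Ids and sty, named after its count was seen, held 5 members, 3 of them in replicates 1 and 4 alone.

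**Figure D5:**
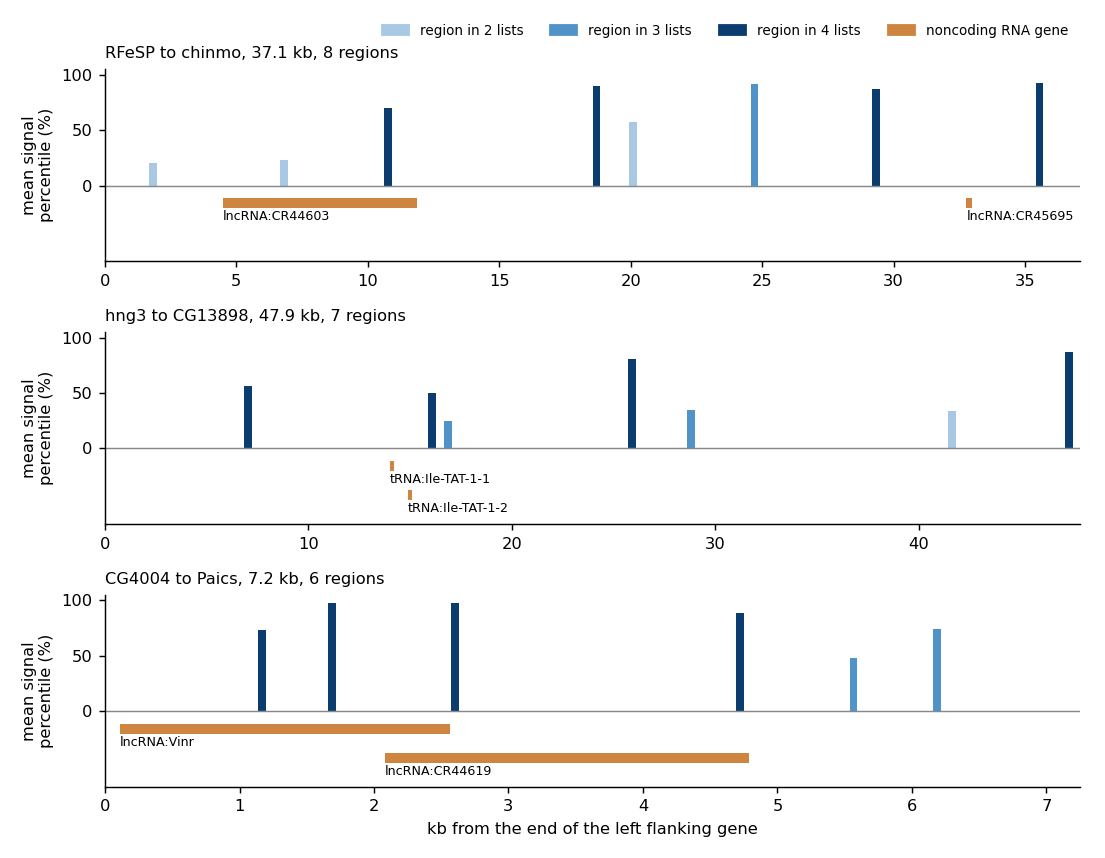
Members of 3 intervals as bars of mean signal percentile (y axis, %) against distance in kb from the end of the left flanking gene; shade gives the number of lists, and orange boxes below are annotated noncoding RNA genes. Those between RFeSP and chinmo rise toward chinmo to 92.2, those between hng3 and CG13898 reach 86.9, and the pair at lncRNA:Vinr and lncRNA:CR44619 stands at 98.1 and 97.6 in the 7.25 kb before Paics.

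Noncoding RNA genes were common near members and as common near positions beside them. A start of a noncoding RNA gene lay within 1 kb of 55 members (16.8%; single lists 17.7% ± 1.36, SD, n = 4), of 14.7% of 495 eligible positions 2 kb to either side, and of 6.33% of eligible sequence. Of the 55, 47 were named as long noncoding RNAs. These members stood higher in signal, at 59.4 ± 4.07 against 51.3 ± 3.75 for the other members, in 4 of 4 replicates (difference 8.13 ± 3.04, exact permutation p = 0.13). Inside the span of such a gene lay 50 members (15.3%), against 15.8% of the positions to either side.

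Among the strongest of the 55 were the regions at tara (909 bp from the start of lncRNA:CR45643), at eEF1gamma (106 bp from lncRNA:CR31044), at Psc (213 bp from lncRNA:CR44339), at slbo (164 bp from lncRNA:CR44810) and at AdamTS-B (606 bp from lncRNA:CR42794). One between NimC3 and hll, 33 bp from lncRNA:CR31840, was held by replicates 1 and 4 alone with percentiles of 87.4 and 92.7. Well-studied noncoding RNA genes, named after the table was seen, also held members. They were roX1, an RNA of the dosage compensation complex (X, summit 3862509, 84 bp from the start, mean percentile 31.2 in 2 lists), Hsromega, the RNA of the heat-induced omega speckles (3R, summit 21296402, 219 bp, 31.9 in 4 lists), and iab8 of the bithorax complex (3R, summit 16919259, 34.0 in 2 lists).

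Most genes that flank members had no region at their own promoter, as holds for protein-coding genes in general. In all 412 protein-coding genes (2.95% of 13968) flanked a member. Of these, 45 (10.9%) had a promoter region within 1 kb of a TSS, against 15.9% of all protein-coding genes and 14.0% of genes beside gene-free intervals without a member, a difference that was not tested. For 263 members (80.4%) neither flanking gene had one, for 53 (16.2%) 1 did and for 11 (3.36%) both did.

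Pair-rule genes, which divide the embryo into segments, stood next to members in 5 of 9 cases, 55.6% against the 2.95% of all genes. That is a description only, since lists were not tested and these members lie in intervals of 9740 to 39695 bp. Intervals without a member had a median of 2858 bp. A promoter region was found at 0 of 9, against 15.9% of all protein-coding genes, and 9 genes are too few to read that absence. A single region between slp1 and slp2, which counts for both genes, was the strongest. The genes hry (hairy, a basic helix-loop-helix repressor), odd (a zinc-finger repressor) and ftz (a homeodomain factor) had members in 2 lists each, with best mean percentiles of 60.4 ± 3.86, 29.9 ± 22.1 and 12.7 ± 8.14 (SD, n = 2). These 3 stood well below slp1 and slp2. The nearest TSS to the member beside hry is that of SrpRbeta.

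The lists of signalling and patterning genes hold few genes each and were not tested, and their counts stand beside the same 2.95% of all genes. In the EGFR pathway 3 of 14 genes flanked members, namely sty (Sprouty, an inhibitor; 5 members, best 69.7 ± 31.4, SD, n = 4), aop (an ETS repressor; 3 members) and vn (a ligand; 1 member, 51.1 ± 16.8, SD, n = 4). Several members flanked the inhibitor gene sty and the repressor gene aop, and 3 genes are too few to show a pattern by function. The strongest member beside sty lies nearer to a TSS of Ids, and the one beside vn nearer to a TSS of CG5568. Of 12 Hox genes and cofactors 3 did (abd-A with 64.3 ± 22.96, SD, n = 4, Abd-B and hth), of 33 other homeobox genes 6 (tup, otp, C15, toy, Dr and Lim1), of 12 gap and head gap genes 2 (oc with 3 members and ems with 2), and of 18 segment polarity genes 3 (ptc, and Wnt4 and wg, which share 1 member). Of 14 mesoderm and muscle genes 3 did (bin, how and zfh1), and a single gene, too few to set against that share, in each of the lists of 16 neural fate genes (SoxN), 20 dorsoventral genes (sog), 18 Notch pathway genes (E(spl)mbeta-HLH) and 21 nuclear receptor genes (EcR). The best members beside abd-A, otp, C15, toy, Lim1, SoxN, sog, EcR, wg and E(spl)mbeta-HLH likewise lie nearest to a TSS of another gene.

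The other lists had shares near the 2.95% of all genes or no gene beside a member. Of 85 cytosolic ribosomal protein genes 0 flanked a member, while 37 had a promoter region, against 15.9% of all protein-coding genes. Heat shock genes gave 0 of 12, with 5 bound at the promoter, too few genes to set against either share. Of 93 cuticle and Osiris genes 2 flanked members (Cpr76Ba and Osi21), and of 119 odorant and gustatory receptor genes 4 (Gr89a, Or85b, Gr93a and Or67d), shares of 2.15% and 3.36%. The members beside Osi21, Or85b and Or67d lie nearest to a TSS of another gene.

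The members' summits were lower in GC than the sequence beside them. GC content within 100 bp of the summit was 38.7% against 41.9% in windows 1000 bp to either side, and the difference was -2.76, -2.84, -1.78 and -4.10 percentage points in replicates 1 to 4 (mean -2.87 ± 0.951, exact permutation p = 0.13). Promoter regions had 38.4% against 44.6%, and distal regions inside genes 37.4% against 40.9%. Soft-masked sequence was 18.8% at members, 18.9% in the flank windows and 26.4% of eligible sequence, and annotated transposable elements held 5 members (1.53%) against 2.63% of the positions 2 kb to either side and 10.9% of eligible sequence.

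Known motifs were searched by their consensus letters on both strands. The DREF element TATCGATA lay in 1 member (0.306%), 0.459% of flank windows and 6.43% of promoter regions, and the Beaf-32 motif CGATA in 21.4%, 18.2% and 38.0%. The Zelda motif CAGGTAG of the early genome activator lay in 1.83%, 1.07% and 0.367%, and the Brinker motif GGCGCC in 5.81%, 3.21% and 3.73%. Each share is among members, their flank windows and promoter regions in that order. In distal regions inside genes the shares were 0.147% (DREF), 21.6% (Beaf-32), 1.61% (Zelda) and 3.52% (Brinker). The Tailless motif AAGTCA lay in 11.0% of members and 12.7% of flank windows, and the nuclear receptor site AGGTCA in 3.67% and 3.52%. The share was also above the flanks for TATAAA (27.5% against 23.1%) and the Forkhead motif TAAACA (16.2% against 14.4%). For both, in this order, it was below that of promoter regions (33.2% and 25.5%) and of distal regions inside genes (30.9% and 21.1%).

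It was below the flanks for GAGAGAG of the GAGA factor (1.83% against 3.82%), the homeodomain motif TAATTA (12.2% against 13.9%), TTTATGG of Caudal (4.28% against 6.42%), ACCGGTT of Grainy head (0.306% against 0.765%), AGATAAG of GATA factors (1.83% against 3.21%), ACAATG of Sox factors (10.1% against 12.4%), TTCNNNGAA of Stat92E (4.59% against 6.73%) and the CA repeat CACACACA (2.45% against 4.59%). For GCCAT of Pleiohomeotic the sign depended on the count, with 33.6% against 34.3% over all members and 33.9% against 33.6% as means of the 4 lists. The lower share of GAGAGAG holds for those exact letters and not for related words. In the count of all words, GAGAGAAA came next after TCTCAGTG among the longer words. It lay in 28 members (8.56%) against 1.07% of flank windows. The shorter AGAGAAA lay in 13.8% against 5.50%. Both were picked for their counts and were not tested. Over all members, 6 of 17 motifs were more frequent at members than beside them and 11 less. The exact sign-flip permutation test over the 4 lists gave the smallest possible p of 0.13 for 15 of them and 0.75 for the 2 others, Pleiohomeotic and the nuclear receptor site, and the lists share most of their regions.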

How the data were processed

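Peaks came from 4 replicate lists of irreproducible discovery rate (IDR) thresholded peaks on dm6, the longer ranked list of each replicate and the authors' conservative set, all deposited as text. Per the README files deposited with the samples, each list was made from that replicate's alignment, and the conservative set from all 4. The aligner, like the peak caller, is not given in the sources used here, and each peak has the authors' signal value, a deposited -log10 q-value and a deposited IDR score (at least 830 in every thresholded list). The signal was ranked within a list only, as a percentile, using the highest peak of a region in each list. Series-level lists other than the conservative set were not used here.

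Genes came from Ensembl release 115 (13968 protein-coding and 3979 noncoding RNA genes on the main arms), sequence from RefSeq dm6, and 0 peaks ran past an arm's end. Interval bounds are the nearest protein-coding genes, and coordinates are 1-based. Differences over replicates were tested with an exact 2-sided sign-flip permutation test. Joining, classing and intervals were tested on simulated data. The members, the 16 gene lists, the 17 motifs and the rules were chosen with earlier results of these data known. The text names the 20 members in all 4 lists with the highest mean percentile, the 5 intervals with the most members (1 of them is not reported here) and the 5 largest holding one, the 8 strongest members near a noncoding RNA start, the 5 farthest from a TSS, those on chromosome 4 and the flanking genes of the lists. Python 3.11.15, pandas 2.3.3, numpy 2.4.6 and matplotlib 3.10.9 were used.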

Additional observations from a re-analysis of the deposited data

Results flagged for a closer look

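The member upstream of tara had a percentile of 99.3 in replicate 3, apart from 99.7, 99.7 and 99.8 in replicates 1, 2 and 4, with a gap of 0.864 of the whole range, above Dixon's critical value for 4 samples. Of 29 sets of 4 replicate values examined this was the 1 that stood apart, and chance alone sets apart about 1 in 20.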

How the results depend on the processing

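In all 138 recomputed values of 9 results, 104 counted as unchanged, 32 moved further and 2 turned direction. Unchanged meant within the SD between lists or, for a tested difference, the same direction. The number of members was judged by a wider limit instead, a set ratio to the main count of 327. By that ratio 13 of its alternatives counted as unchanged. They include 392 members with a TSS distance over 500 bp, outside the SD of 33.3 between lists. The mean signal percentile of members stayed below that of promoter regions (differences from -7.62 to -2.34), the share of distal intergenic peaks stayed lower in the highest signal quartile (-5.25 to -1.11) and the summits stayed lower in GC (-3.67 to -1.70) under every alternative run for them. These directions are those of the mean over lists. For the difference from promoter regions, single replicates differed in sign with 3 or more lists and with the stronger 50% of each list. They also differed without replicate 1 and without replicate 4 (exact permutation p = 0.5 for each of these settings). The small difference from distal regions inside genes turned to -0.76 with a TSS distance over 500 bp and to -1.001 with genes of every biotype.

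Requiring 3 lists left 189 members, a median interval of 17.7 kb, 41.8% sharing their interval and 19.0% near a noncoding RNA start. Requiring all 4 left 117 members, 9.99% of regions, 18.4 kb, 35.0% and 20.5%. The stronger 50% of each list gave 150 members, 18.7 kb, 38% sharing and 20.7% near such a start. The authors' conservative set gave 9.997% of regions, 18.4 kb and 19.3%, and no signal comparison. A TSS distance over 500 bp gave 14.8% of regions, 16.0 kb and 44.9% sharing, and one over 2000 bp gave 9.88%, 23.6 kb, 52.1% and 14.6% near a noncoding RNA start. With genes of every biotype, members were 8.97% of regions, with 10.4 kb, 34.6% sharing and, by construction, 0% near a noncoding RNA start, and the same members in intervals bounded by every biotype had a median of 8.12 kb. Fewer regions leave fewer to share an interval, which the stricter settings build in; for the other moves the cause was not tested.

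Leaving out each replicate in turn gave median intervals of 19.3 to 20.8 kb, 41.2% to 49.0% sharing (lowest without replicate 4) and 16.8% to 19.2% near a noncoding RNA start. Leaving out members in repeats, an alternative added after the data were seen, changed no result past these limits. Joining and list number do not enter the quartile result, so it was not recomputed for them. No paired analysis was possible because all samples belong to 1 group. Unknown depth limits what the absence of a region from a list shows.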

Other observations

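Of the 5 longest gene-free intervals that hold a member, 4 held 1 or 2 and the one at the end of X held 6. The longest, between CG42598 and CG40228 (3L, 710.7 kb), held 1 member with a mean percentile of 8.76 in sequence that is 100% soft-masked. A further 2 lay in the 567.1 kb before Myo81F at the start of 3R, at means of 13.3 and 26.7, and both windows are wholly soft-masked. Between DIP1 and CG40813 (X, 512.9 kb) the single member, at a mean of 55.0, lies in lncRNA:flam, the source of small RNAs against transposons in the ovary. Between Dbp80 and eIF4B (3L, 420.5 kb) the single member stood at 29.5.

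The end of X beyond ATbp (23108332 to 23542271) held 6 members among annotated ribosomal RNA genes and pseudogenes. The annotation lists 17 entries of ribosomal RNA there and 9 transposable elements. The strongest, at 23217129, lies in the pseudogene 28SrRNA-Psi:CR45859 and had percentiles of 99.0, 96.9, 98.3 and 97.8 in replicates 1 to 4. The next, at 23222465 in an R2 element, had 96.1, 85.6, 88.7 and 91.0. Both are among the leading 20. Repeated copies share reads, so these positions are uncertain, and the other 4 had lower means. The 5 members farthest from any TSS were 3 of this interval and the 2 at the start of 3R, at distances of 226101 to 313873 bp.

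Chromosome 4 held 2 members, between dati and lgs (62.7 ± 3.73) and between fuss and toy (36.1 ± 6.62; SD, n = 2 lists), and Y held 0 in 2.61 Mb of eligible sequence. Members per eligible Mb were 11.1 on 2L, 9.16 on 3L, 8.08 on X, 7.47 on 2R and 7.37 on 3R.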
